A study of Mus musculus with 12 samples.

Results

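Precursor B cells that had already lost 1 copy of Pax5 were compared with and without the further loss of 1 copy of Cd72. The comparison set the 4 arrays titled Cd72+/-;Pax5+/- (samples 9 to 12) against the 4 titled Pax5+/- (samples 1 to 4), so both groups carried the Pax5 deletion and differed, by their labels, in Cd72 alone. The labels call the cells of both groups preleukemic precursor B cells, purified from the bone marrow of mice 1 month old that were kept free of specific pathogens. The 4 arrays of wild-type pro-B cells (WT, samples 5 to 8) also entered the fit and are given beside single genes. Of 28944 transcript clusters on the Affymetrix Mouse Gene 1.0 ST array, 23410 carried a gene symbol and 22249 of these lay on an autosome; those 22249 are the features described here. A further 1028 clusters on chromosome X or Y were set aside, 127 had no chromosome and 6 lay elsewhere. Of the 22249, 20874 carried 1 symbol and 1375 several, and no gene is named from a cluster with several. The labels name neither the strain nor the deleted part of either gene, and they do not say that each array came from a mouse of its own. The p-values therefore measure only how much these arrays vary, and that variation may be technical.

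CD72 is a lectin-like receptor on the surface of B cells that dampens the B-cell receptor: its cytoplasmic tail recruits the phosphatase SHP-1, encoded by Ptpn6, and its ligand is the semaphorin encoded by Sema4d. Pax5 is the transcription factor that commits precursors to the B lineage, switching on B-cell genes, Cd72 among them, and switching off genes of other lineages. Pro-B cells rearrange the immunoglobulin heavy-chain genes and depend on interleukin-7, and loss of Pax5 function is a frequent lesion in B-cell acute lymphoblastic leukemia.

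All values are log2 levels as deposited, and a difference is the mean of the Cd72+/-;Pax5+/- arrays minus the mean of the Pax5+/- arrays, with its standard error (SE). A cluster passed the test at a limma p under 0.05 after Benjamini-Hochberg adjustment over the 23410 clusters with a symbol. Since the arrays measure RNA of a whole sorted population, fewer cells of a kind and less RNA per cell cannot be told apart. Array medians ran from 6.91 to 7.005. In each group the 4 arrays were divided into the 2 pairs that differed least, called closest pairs. In Pax5+/- these were samples 1 and 3 (SD of their difference 0.179) and 2 and 4 (0.130). In Cd72+/-;Pax5+/- they were samples 9 and 10 (0.125) and 11 and 12 (0.128). The other pairs differed with an SD of 0.192 to 0.276 in Pax5+/- and 0.132 to 0.187 in Cd72+/-;Pax5+/-. In WT the closest pairs were samples 5 and 7 (0.113) and 6 and 8 (0.123), and the other WT pairs had an SD of 0.261 to 0.27. Counts are therefore also given with each closest pair averaged into 1 value, 2 against 2, and single genes that no longer passed then are named as such. Sex-linked transcripts moved with the genotype: Xist averaged 5.18 in Pax5+/- and 11.80 in Cd72+/-;Pax5+/-, while the Y-linked Uty averaged 9.37 and 5.02, and Kdm5d 9.37 and 5.70. The WT arrays lay with Pax5+/- in these transcripts, with means of 5.23 for Xist, 9.33 for Uty and 9.10 for Kdm5d. Genotype and sex therefore cannot be told apart in any result below. A gene whose WT level lies with Pax5+/- and apart from Cd72+/-;Pax5+/- is also grouped as the sex-linked transcripts are. Marker lists of other cells differed in how many genes passed: none of 14 granulocyte, 6 megakaryocyte, 10 basophil, mast cell and eosinophil or 10 endothelial markers, 1 of 10 NK-cell, 1 of 8 erythroid, 1 of 12 stem and progenitor, 2 of 13 T-cell, 2 of 12 monocyte and 2 of 12 stromal markers. The share was higher, in both directions, for plasmacytoid dendritic cell markers (4 of 9, with Bst2 and Spib higher and Irf8 and Ccr9 lower) and plasma cell markers (4 of 10, with Derl3 and Mzb1 higher and Sdc1 and Jchain lower). Over all autosomal clusters 9.91% passed, 4.52% higher and 5.38% lower. The mean over 9 plasmacytoid dendritic cell markers was 7.93 to 8.11 on the Pax5+/- arrays and 8.08 to 8.13 on the Cd72+/-;Pax5+/- arrays, and that over 10 plasma cell markers 7.63 to 7.78 and 7.70 to 7.76. The mean over 12 stem and progenitor markers was 6.85 to 6.88 and 7.04 to 7.08, with no overlap, and Cd48 was the one marker of that list that passed. The median difference over that list was -0.03, with 5 of 12 above 0, and Cd48 alone rose by 2.64. The mean over 12 monocyte markers was 6.66 to 6.74 on the Pax5+/- arrays and 6.48 to 6.51 on the Cd72+/-;Pax5+/- arrays, with Ccr2 lower and Cd68 higher; the median difference over the list was 0.04, with 7 of 12 above 0, and Ccr2 alone fell by 3.92. The mean over 12 stromal markers was 6.68 to 7.58 on the Pax5+/- arrays and 6.62 to 6.75 on the Cd72+/-;Pax5+/- arrays. The Pax5+/- arrays split by closest pair: samples 1 and 3 were high, and samples 2 and 4 lay within the range of samples 9 to 12. The median difference over the list was -0.29, with 2 of 12 above 0. Cxcl12, a chemokine of marrow stroma, was at 9.08 and 9.25 in samples 1 and 3 and at 7.37 and 7.17 in samples 2 and 4, against 6.42 to 6.96 in samples 9 to 12 (limma adjusted p 0.0328, and 0.467 with the closest arrays averaged). Alpl, the other stromal marker that passed, went the opposite way, with a rise of 1.53 (SE 0.133, limma adjusted p 7.66e-06, and 0.0324 with the closest arrays averaged). The part of these cells in the results was not tested.

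Cd72 itself was lower on every array of the Cd72+/-;Pax5+/- group. It measured 10.26, 10.27, 10.03 and 10.19 in samples 1 to 4 and 7.52, 7.34, 7.52 and 7.67 in samples 9 to 12. The WT arrays, at 9.29, 8.49, 9.39 and 8.43, lay between the groups, and none of the 3 groups overlapped. The difference was -2.67 (SE 0.192, limma adjusted p 1.41e-06), a 6.39-fold fall, and the exact two-sided permutation test of 4 arrays against 4 gave 0.0286, the smallest p it can give. Pax5, of which both groups lack 1 copy, measured 10.65, 11.15, 10.87 and 11.21 in samples 1 to 4 and 11.31, 11.22, 11.18 and 11.11 in samples 9 to 12. The groups overlapped, and the difference of 0.23 (SE 0.114) did not pass (limma adjusted p 0.252; exact permutation p 0.171).

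**Figure D1:**
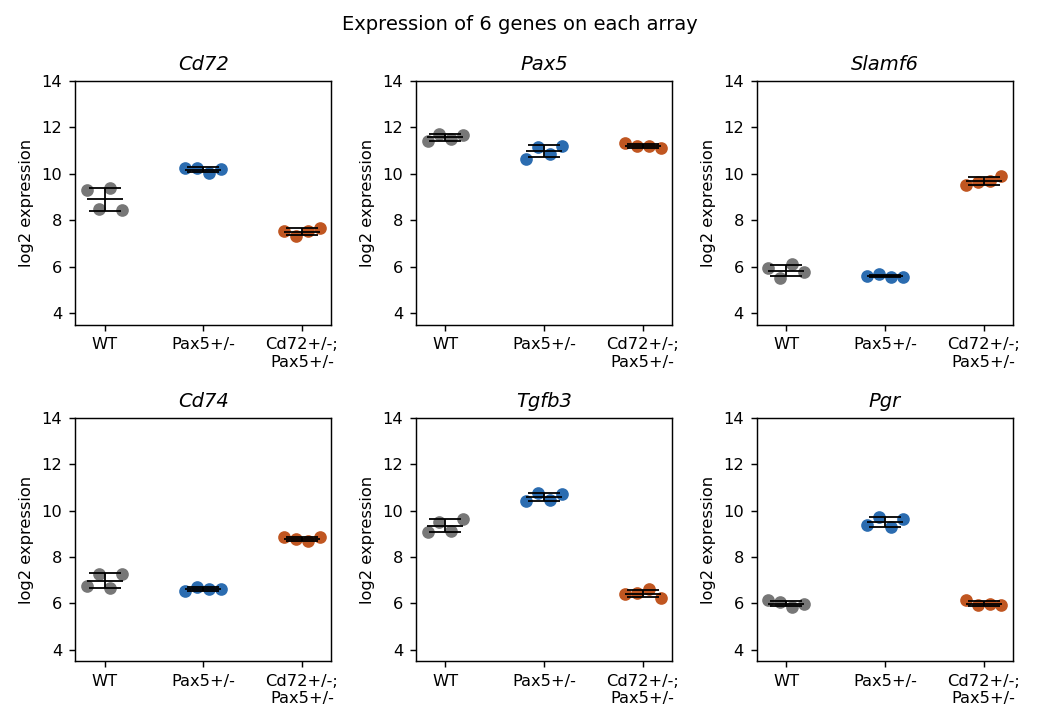
Log2 expression of 6 genes (one panel each) on the 12 arrays, 4 in each group; points are arrays, the long bar is the group mean and the error bars are 1 SD. Cd72 falls from a mean of 10.19 in Pax5+/- to 7.51 in Cd72+/-;Pax5+/-, Pax5 overlaps between these groups, Slamf6 and Cd74 are higher and Tgfb3 and Pgr lower in Cd72+/-;Pax5+/-.

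Of 8 genes for CD72 and its partners, Cd72 and Ptpn6 fell, Plxnb2, which encodes a plexin receptor of semaphorins, and Sos1, a Ras activator downstream of Grb2, rose, and 4 did not pass. Ptpn6 measured 10.01, 9.91, 9.89 and 9.87 in samples 1 to 4 and 9.50, 9.57, 9.59 and 9.68 in samples 9 to 12, with no overlap, a fall of 0.34 (SE 0.0487, limma adjusted p 0.000567). Plxnb2 rose by 0.52 (SE 0.0603, limma adjusted p 9.19e-05) and Sos1 by 0.35 (SE 0.0773, limma adjusted p 0.0104). The ligand gene Sema4d differed by -0.12 with overlapping groups (limma adjusted p 0.757). With the closest arrays averaged Cd72 alone of these genes passed, at an adjusted p of 0.0214, and Ptpn6 was at 0.0936. Among 21 inhibitory co-receptors and their phosphatases, 2 rose and 4 fell, beside 4.52% higher and 5.38% lower over all autosomal clusters. The falls include Cd72 itself, whose copy the genotype removed. Cd22, which encodes a sialic acid-binding inhibitory receptor of B cells, rose by 0.47 (SE 0.0585, limma adjusted p 0.000157), and Btla by 0.56 (SE 0.113, limma adjusted p 0.00613). Besides Cd72 and Ptpn6, the falls were in Dok3, an adaptor that restrains receptor signals (which fell by 1.00, SE 0.166, limma adjusted p 0.00156), and in Cd5 (-0.36, SE 0.0876, limma adjusted p 0.0217). Of these 6 genes only Cd72 passed with the closest arrays averaged, and Cd5 passed no longer when sample 2, 4, 11 or 12 was left out (largest adjusted p without 1 array 0.0649).

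Across the autosomes the further loss of a Cd72 copy went with changes in 2204 of 22249 clusters, or 9.91%. Of these, 1006 (4.52%) were higher and 1198 (5.38%) lower in Cd72+/-;Pax5+/-. With the arrays shifted to a common median the balance turned, to 1131 higher and 1048 lower. Most were small: the median size among those that passed was 0.43, beside 0.08 over all 22249, whose median difference was 0.01. In 248 clusters (1.11%) the change was over 2-fold, 90 higher and 158 lower, and in 40 it was over 4-fold, 13 higher and 27 lower. The threshold stated for the study, a p under 0.05 with a change over 2-fold and no word on adjustment, was met by 264 clusters, of which 91 were higher and 173 lower, and 248 of them also passed after adjustment. The 4 arrays of one group did not overlap the 4 of the other in 4132 clusters (18.6%), among them 2111 of the 2204 that passed and 245 of the 248 over 2-fold. With the closest arrays averaged 403 of the 2204 and 164 of the 248 still passed. Counts of list members above and below are to be read against the shares of 4.52% higher and 5.38% lower over all autosomal clusters.

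**Figure D2:**
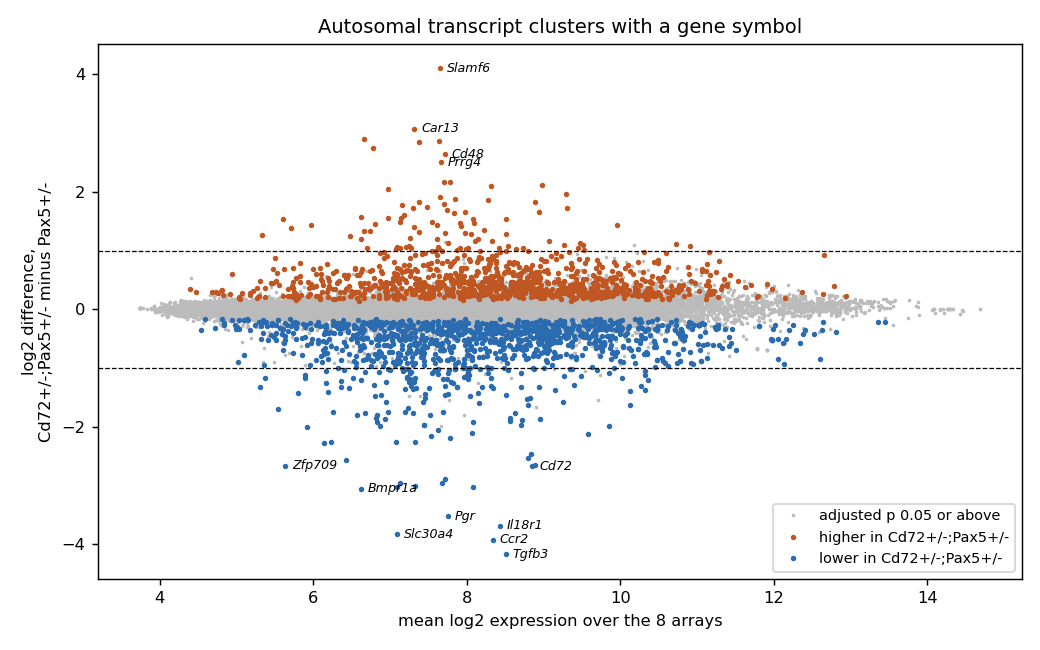
Each of the 22249 autosomal clusters by its mean log2 level over the 8 arrays (x axis) and its log2 difference, Cd72+/-;Pax5+/- minus Pax5+/- (y axis); orange points passed and were higher, blue points passed and were lower, and dashed lines mark 2-fold. The 1006 higher and 1198 lower clusters lie mostly inside the dashed lines, and 27 of the 40 changes over 4-fold are falls.

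Slamf6, a receptor of the signalling lymphocytic activation molecule (Slam) family that binds itself on neighbouring lymphocytes, measured 5.61, 5.67, 5.55 and 5.57 in samples 1 to 4 and 9.53, 9.63, 9.71 and 9.92 in samples 9 to 12. The groups stood far apart, and the WT arrays, at 5.50 to 6.10, lay with Pax5+/-. The difference was 4.10 (SE 0.114, limma adjusted p 2.63e-10), or 17.1-fold, the largest of any gene named from 1 cluster among the rises. Of 10 measured genes for the Slam family and its adaptors, 5 rose and 1 fell, with a median of 0.24. Slamf7 went from 6.21 ± 0.196 (SD, n = 4) to 9.06 ± 0.0538, a difference of 2.86 (SE 0.151, limma adjusted p 8.38e-08), and the WT mean was 6.35. Cd48, the ligand of the receptor encoded by Cd244a, measured 6.89, 6.11, 6.58 and 5.97 in samples 1 to 4 and 8.72, 8.90, 9.13 and 9.37 in samples 9 to 12. This rise of 2.64 (SE 0.215, limma adjusted p 4.47e-06) brought it above the WT arrays, at 7.84 to 8.44, without overlap. Cd84, another self-binding member, rose by 2.17 (SE 0.222, limma adjusted p 2.89e-05), to levels of 8.76 to 8.93 beside 8.77 to 9.87 in WT, and with the closest arrays averaged its adjusted p was 0.0534. Slamf9 rose by 0.32 (SE 0.0722, limma adjusted p 0.0135). Cd244a fell by 0.59 (SE 0.141, limma adjusted p 0.0178), and passed no longer when sample 2, 9 or 10 was left out (largest adjusted p 0.0565). Neither Slamf9 nor Cd244a passed with the closest arrays averaged. Ly9 and Slamf1 differed by 0.09 and 0.16 with overlapping groups and did not pass (limma adjusted p 0.409 and 0.218).

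These receptor genes are neighbours on chromosome 1. In the RefSeq order of genes measured by a cluster with 1 symbol, Cd244a, Ly9, Slamf7, Cd48, Slamf1, Cd84 and Slamf6 follow one another, and 4 of these 7 were over 2-fold higher, while Ly9, before Slamf7, and Slamf1, between Cd48 and Cd84, did not pass. Members of such gene families share sequence, so some probes may not tell them apart. Further along the chromosome lies the Aim2 and Ifi200 family, which encodes cytosolic and nuclear DNA sensors. There the neighbours moved in opposite directions. Of 10 measured members, listed after their values were seen, 4 rose and 2 fell. Aim2, the sensor that assembles an inflammasome on cytosolic DNA, measured 9.39, 9.56, 9.44 and 9.63 in samples 1 to 4 and 7.48, 7.65, 7.88 and 7.93 in samples 9 to 12, below WT (10.10 to 10.23) in both groups and with no overlap. The fall was 1.77 (SE 0.0915, limma adjusted p 7.13e-08). Next to it Ifi206 rose by 1.54 (SE 0.13, limma adjusted p 5.93e-06) and Ifi213 by 1.34 (SE 0.18, limma adjusted p 0.00031). Ifi214, between them, fell from 8.60 ± 0.108 to 5.65 ± 0.353. It fell by 2.95 with an SE of 0.621 (limma adjusted p 0.00852); the WT arrays, which enter the estimate of the spread, lay at 9.26, 6.25, 9.47 and 6.48, and with the closest arrays averaged it did not pass (adjusted p 0.318). Ifi208 rose by 1.45 (SE 0.114, limma adjusted p 3.33e-06) and Ifi207 by 0.93 (SE 0.125, limma adjusted p 0.00031). The Ifi200 genes are near copies of one another, so their single values are uncertain.

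**Figure D3:**
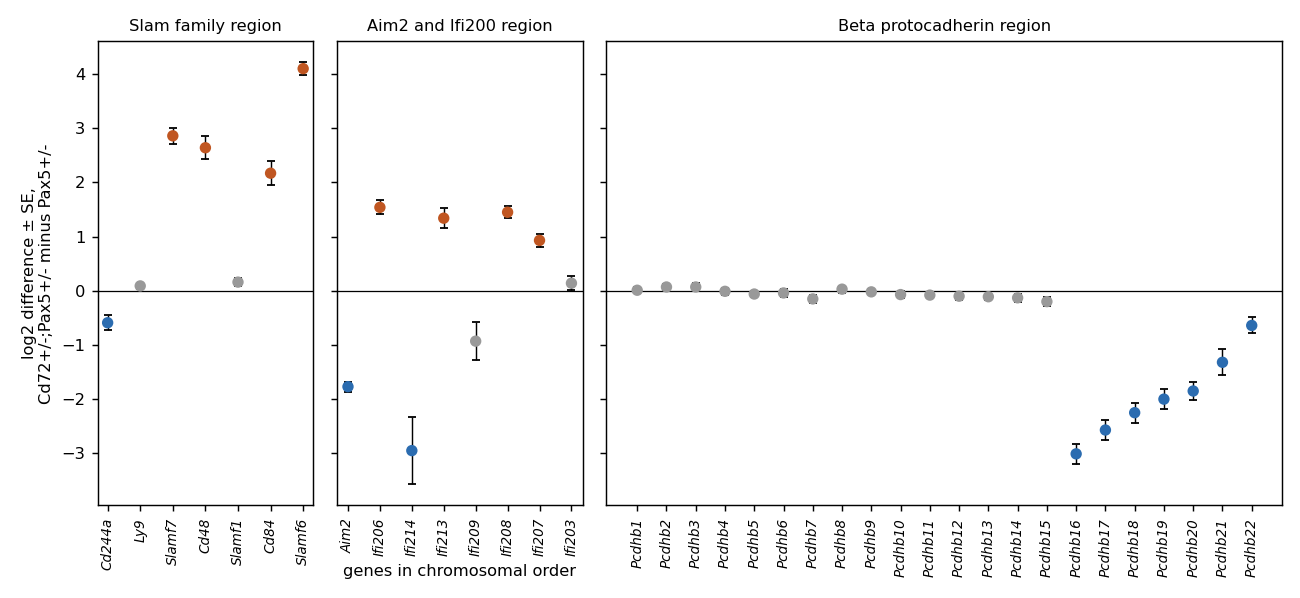
Log2 difference, Cd72+/-;Pax5+/- minus Pax5+/-, with its SE, for genes in chromosomal order in 3 regions (the x axis gives order, not distance); orange genes passed and were higher, blue genes passed and were lower, grey genes did not pass. Slamf7, Cd48, Cd84 and Slamf6 are higher by 2.17 to 4.10, the Ifi200 genes move both ways, and the beta protocadherins fall from Pcdhb16 onward but not before it.

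Another block of neighbours, the beta protocadherins on chromosome 18, fell together. These genes encode cell adhesion proteins best known from neurons. Of 22 measured members, listed after their values were seen, 7 fell, and these were the last 7 in gene order, Pcdhb16 to Pcdhb22. Pcdhb16 measured 8.64, 8.90, 8.97 and 8.82 in samples 1 to 4 and 5.79, 5.66, 5.83 and 6.00 in samples 9 to 12, a difference of -3.01 (SE 0.187, limma adjusted p 3.57e-07). No array of one group reached the other, and WT lay between them at 6.89 to 7.78. Along the order of genes the differences were -2.57 for Pcdhb17, -2.25 for Pcdhb18, -1.85 for Pcdhb20, -1.32 for Pcdhb21 and -0.64 for Pcdhb22 (limma adjusted p 1.86e-06 to 0.014), and Pcdhb19 fell by 2.00. Pcdhb1 to Pcdhb15 did not pass, with differences of -0.20 to 0.07. Pcdhb21 and Pcdhb22 did not pass with the closest arrays averaged, and family members share sequence here too. Other neighbours over 2-fold were Il18r1 with Il18rap, Kbtbd7 with Kbtbd6, Zfp52 with Zfp948, and Dlg2 with Ccdc90b; Zfp948 did not pass with the closest arrays averaged (adjusted p 0.0515). Dlg2, a synaptic scaffold gene, went from 6.27 ± 0.0455 to 8.04 ± 0.175 (n = 4 each), with WT at 6.21, a rise of 1.77 (SE 0.073, limma adjusted p 8.81e-09), and Ccdc90b beside it rose by 1.27 (SE 0.107, limma adjusted p 5.85e-06). The share of clusters that passed and were over 2-fold was 2.18% on chromosome 1, 1.89% on chromosome 4, 1.79% on chromosome 18 and 0.498% on chromosome 7, the lowest, beside 1.11% over all autosomes.

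Cd72 and Pax5 themselves lie near each other on chromosome 4. Of 71 measured genes within 20 places of either, 2 rose and 2 fell (5.63%, beside 9.91% over all clusters), and none was over 2-fold; without sample 1 the total was 7. Ccdc107 rose by 0.25 (SE 0.0505, limma adjusted p 0.00647) and Aldh1b1, an aldehyde dehydrogenase gene, by 0.44 (SE 0.108, limma adjusted p 0.0222). Car9, a carbonic anhydrase gene, fell by 0.28 (SE 0.0586, limma adjusted p 0.00868) and Hint2 by 0.26 (SE 0.0587, limma adjusted p 0.0137). None of the 4 passed with the closest arrays averaged, and Aldh1b1 passed no longer when sample 1, 3, 9, 10 or 12 was left out (largest adjusted p 0.0659).

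Other genes with large rises had varied roles. Cd44, the hyaluronan receptor that marks activated and migrating lymphocytes, measured 6.09, 5.96, 6.05 and 5.68 in samples 1 to 4 and 8.77, 8.69, 8.82 and 8.86 in samples 9 to 12. The groups did not overlap, and WT, at 7.99 to 8.08, was nearer to Cd72+/-;Pax5+/-. The rise was 2.84 (SE 0.0789, limma adjusted p 2.63e-10). Car13, a cytosolic carbonic anhydrase gene, rose by 3.07 (SE 0.0767, limma adjusted p 2.04e-10), from 5.67 to 5.94 on the Pax5+/- arrays and 5.83 to 6.05 on the WT arrays to 8.67 to 8.97. Gtpbp10, which encodes a GTPase of mitochondrial ribosome assembly, rose by 2.75 (SE 0.112), Prrg4 by 2.50 (SE 0.131), Clec2i, a lectin gene, by 2.12 (SE 0.11), Kbtbd6, a ubiquitin ligase adaptor gene, by 2.05 (SE 0.108), Acsf2 by 1.87 (SE 0.0915) and Mfsd13a by 1.86 (SE 0.0799), all with a limma adjusted p of 8.32e-08 or less. Ccnd1, the gene of cyclin D1, measured 8.21, 7.81, 8.18 and 7.67 in samples 1 to 4 and 9.90, 9.73, 9.78 and 9.80 in samples 9 to 12, a rise of 1.83 (SE 0.129, limma adjusted p 1.15e-06), with WT at 9.16 to 9.57. The genes of this paragraph passed with the closest arrays averaged too.

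The largest falls included ligands and receptors of the transforming growth factor beta (TGF-beta) and bone morphogenetic protein (BMP) pathways. These secreted factors bind paired serine-threonine kinase receptors that phosphorylate Smad proteins, and they restrain the growth of early B cells. Tgfb3, a ligand gene, measured 10.43, 10.76, 10.46 and 10.72 in samples 1 to 4 and 6.39, 6.43, 6.62 and 6.23 in samples 9 to 12. WT lay between, at 9.09 to 9.64, with no overlap of any groups. The difference was -4.17 (SE 0.132, limma adjusted p 7.44e-10), an 18.1-fold fall. Another ligand gene, Tgfb2, fell by 1.45 (SE 0.0711, limma adjusted p 3.9e-08), from 7.54 to 7.68 on the Pax5+/- arrays to 6.11 to 6.22, with WT at 6.35 to 6.65. Bmpr1a, a type I BMP receptor gene, measured 8.54, 8.07, 8.23 and 7.73 in samples 1 to 4 and 5.07, 5.18, 5.11 and 5.00 in samples 9 to 12, and WT, at 5.21 to 5.65, was near the latter. Bmpr1a fell by 3.05 (SE 0.144, limma adjusted p 2.81e-08). Smad7, the inhibitory Smad that TGF-beta signals induce, fell by 1.58 (SE 0.0873, limma adjusted p 1.24e-07), from a mean of 10.05 to 8.46 with WT at 8.21. Smo, the membrane protein that passes on hedgehog signals, fell by 2.64 (SE 0.111, limma adjusted p 1.12e-08), from 10.16 to 10.27 on the Pax5+/- arrays to 7.36 to 7.84, with WT at 9.45 to 9.86. Of 29 measured genes of the TGF-beta, BMP and hedgehog pathways 7 fell, 1 rose and 21 did not pass, with a median of -0.10. The list was written after values of these arrays were seen, so the count is a description. The receptor genes Acvr2b and Acvr1 fell by 0.32 and 0.18 (limma adjusted p 0.00683 and 0.0442), and the co-receptor gene Tgfbr3 rose by 0.71 (SE 0.109, limma adjusted p 0.000863). Tgfb3, Tgfb2, Bmpr1a, Smad7 and Smo passed with the closest arrays averaged, and Acvr2b, Acvr1 and Tgfbr3 did not. Acvr1 also passed no longer when sample 2, 3, 4, 9, 11 or 12 was left out (largest adjusted p 0.126).

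Receptors of the interleukin-1 family fell as well. Il18r1, the ligand-binding chain of the interleukin-18 receptor, measured 9.99, 10.46, 9.95 and 10.66 in samples 1 to 4 and 6.64, 6.69, 6.55 and 6.47 in samples 9 to 12. The WT arrays, at 6.68 to 7.27, lay close to Cd72+/-;Pax5+/-. The fall was 3.68 (SE 0.173, limma adjusted p 2.76e-08), or 12.8-fold. Its partner chain Il18rap, next to it on chromosome 1, fell by 1.63 (SE 0.165, limma adjusted p 2.59e-05), from a mean of 10.94 to 9.31, the WT mean being 9.32. Of 11 measured genes of the family, listed after their values were seen, 5 fell, none rose, and the median was -0.35. Il1r2, a decoy receptor gene, fell by 1.24 (SE 0.144, limma adjusted p 8.95e-05), Il33, a cytokine gene, by 1.18 (SE 0.0652, limma adjusted p 1.26e-07), and Il1rap, the shared signalling chain, by 0.35 (SE 0.0655, limma adjusted p 0.00408). With the closest arrays averaged Il18r1 and Il33 passed, Il18rap was at an adjusted p of 0.0534, and Il1r2 and Il1rap did not pass.

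Further large falls were in single genes. Ccr2, a chemokine receptor gene best known from monocytes and repressed by Pax5, measured 10.45, 10.28, 10.33 and 10.10 in samples 1 to 4 and 6.30, 6.42, 6.42 and 6.36 in samples 9 to 12, with WT at 10.56, 9.36, 10.62 and 9.27. The Cd72+/-;Pax5+/- arrays alone were low, and the level fell by 3.92 (SE 0.266, limma adjusted p 8.38e-07). Slc30a4, a zinc transporter gene, likewise stood at 8.91 to 9.15 in Pax5+/- and 8.49 to 8.76 in WT but at 4.92 to 5.55 in Cd72+/-;Pax5+/-, a difference of -3.83 (SE 0.113, limma adjusted p 4.88e-10). Pgr, the progesterone receptor gene, showed another order: 9.36, 9.71, 9.31 and 9.64 in samples 1 to 4, 6.13, 5.91, 5.97 and 5.94 in samples 9 to 12, and 5.85 to 6.13 in WT. Here the Pax5+/- arrays alone were high, and the difference was -3.52 (SE 0.0944, limma adjusted p 2.63e-10). The same order held for Adgre5, an adhesion receptor gene (means 8.61 in Pax5+/-, 5.58 in Cd72+/-;Pax5+/- and 5.81 in WT), for Hmces, which protects abasic sites in DNA (9.15, 6.20 and 6.57), and for Frmd4b (9.16, 6.27 and 6.07). Their limma adjusted p-values were 6.52e-09, 2.22e-09 and 3.18e-09. Zfp709, a zinc finger gene, fell by 2.66 (SE 0.307, limma adjusted p 8.5e-05), though not past the threshold with the closest arrays averaged (adjusted p 0.077), and 2610008E11Rik by 3.03 (SE 0.284, limma adjusted p 1.42e-05). Since the comparisons of each mutant group with WT share arrays with the one described here, the WT levels are given as levels only.

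Interferon-stimulated genes were higher in Cd72+/-;Pax5+/-. Type I interferon switches on antiviral genes, many of which carry an interferon-stimulated response element, bound by Irf9 among others, in their promoters. Of 26 measured genes of this list 16 (61.5%) rose and none fell, beside 4.52% and 5.38% of all clusters, with a median of 0.46 beside 0.01. In 17 of the 26 the 4 arrays of one group did not overlap those of the other, beside 18.6% of all clusters. To show the response element where it stood, windows of 120 bases are printed from RefSeq, build GRCm38.p6. They run 5′ to 3′ on the gene's strand, and each ends at or before the transcription start. All are from members that rose and carry the core of the element, which not every rising member does. Capitals mark the core of the response element, searched as GAAANNGAAA on both strands with overlaps allowed; on the opposite strand it reads TTTCNNTTTC.
Rsad2, chr12:26456508-26456627, minus strand: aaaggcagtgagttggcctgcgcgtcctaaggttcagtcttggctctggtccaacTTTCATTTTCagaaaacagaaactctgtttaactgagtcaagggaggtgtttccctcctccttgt
Ifit1, chr19:34640739-34640858, plus strand: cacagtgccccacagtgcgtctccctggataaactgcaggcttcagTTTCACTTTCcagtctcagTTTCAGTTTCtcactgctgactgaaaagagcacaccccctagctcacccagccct
Ifit3, chr19:34583335-34583454, plus strand: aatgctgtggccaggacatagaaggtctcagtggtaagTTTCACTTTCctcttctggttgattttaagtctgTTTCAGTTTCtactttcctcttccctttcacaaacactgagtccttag
Bst2, chr8:71537535-71537654, minus strand: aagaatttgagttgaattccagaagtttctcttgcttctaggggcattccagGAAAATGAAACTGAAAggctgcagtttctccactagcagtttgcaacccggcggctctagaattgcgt
Gbp3, chr3:142559924-142560043, plus strand: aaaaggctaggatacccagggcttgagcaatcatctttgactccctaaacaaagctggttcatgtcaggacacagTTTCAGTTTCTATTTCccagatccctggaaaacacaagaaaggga
The core stood in the promoter, from 250 bases before to 50 after the start, of 6 of the 11 rising members with a promoter in the table and of 5 of the 7 members that did not pass, beside 1079 of 27025 genes (3.99%). It therefore did not divide the members that rose from those that did not pass. A match is a description of the letters and not evidence of binding.

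Rsad2, which encodes the antiviral enzyme viperin and has 1 core in the window shown, measured 6.30, 6.33, 6.38 and 6.44 in samples 1 to 4 and 7.95, 7.88, 7.82 and 8.06 in samples 9 to 12. The WT arrays, at 6.24 to 6.51, lay with Pax5+/-. The rise was 1.56 (SE 0.0665, limma adjusted p 1.18e-08). Ifit1, which binds foreign RNA and has 2 cores in its window, measured 4.87, 5.17, 5.17 and 4.89 in samples 1 to 4 and 6.14, 6.17, 6.59 and 6.72 in samples 9 to 12, a rise of 1.38 (SE 0.126, limma adjusted p 1.15e-05), with WT at 4.92 to 5.08. Ifih1, an RNA sensor, rose by 1.32 (SE 0.108, limma adjusted p 4.7e-06), Oas2, which makes the second messenger of RNase L, by 1.46 (SE 0.196, limma adjusted p 0.000302), and Rtp4 by 1.33 (SE 0.157, limma adjusted p 0.000102). Bst2, which tethers virions to the cell surface, measured 8.04, 7.66, 8.08 and 8.10 in samples 1 to 4 and 8.63, 8.83, 8.79 and 8.94 in samples 9 to 12, with no overlap and a rise of 0.83 (SE 0.101, limma adjusted p 0.000136). Gbp3 rose by 0.67 (SE 0.104, limma adjusted p 0.000973) without reaching the WT arrays at 9.59 to 9.70. The factors that drive the list rose too, Irf9 by 0.70 (SE 0.109, limma adjusted p 0.00102) and Irf7 by 0.61 (SE 0.122, limma adjusted p 0.00623). Ifit3, Mx2, Ifit2, Xaf1, Usp18, Dhx58 and Oasl2 rose by 0.38 to 0.62. The other 10 members did not pass, with differences of 0.04 for Mx1 and -0.07 for Zbp1 among them, both with overlapping groups (limma adjusted p 0.676 and 0.644). With the closest arrays averaged 6 of the 16 passed: Rsad2, Ifih1, Ifit1, Bst2, Ifit3 and Mx2. Leaving out single arrays left 13 to 16, with Ifit2 lost without sample 4, 10 or 12, Xaf1 without sample 1, 2, 3, 9, 10 or 12, and Dhx58 without each array but sample 4 (largest adjusted p 0.0694, 0.0758 and 0.0855).

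**Figure D4:**
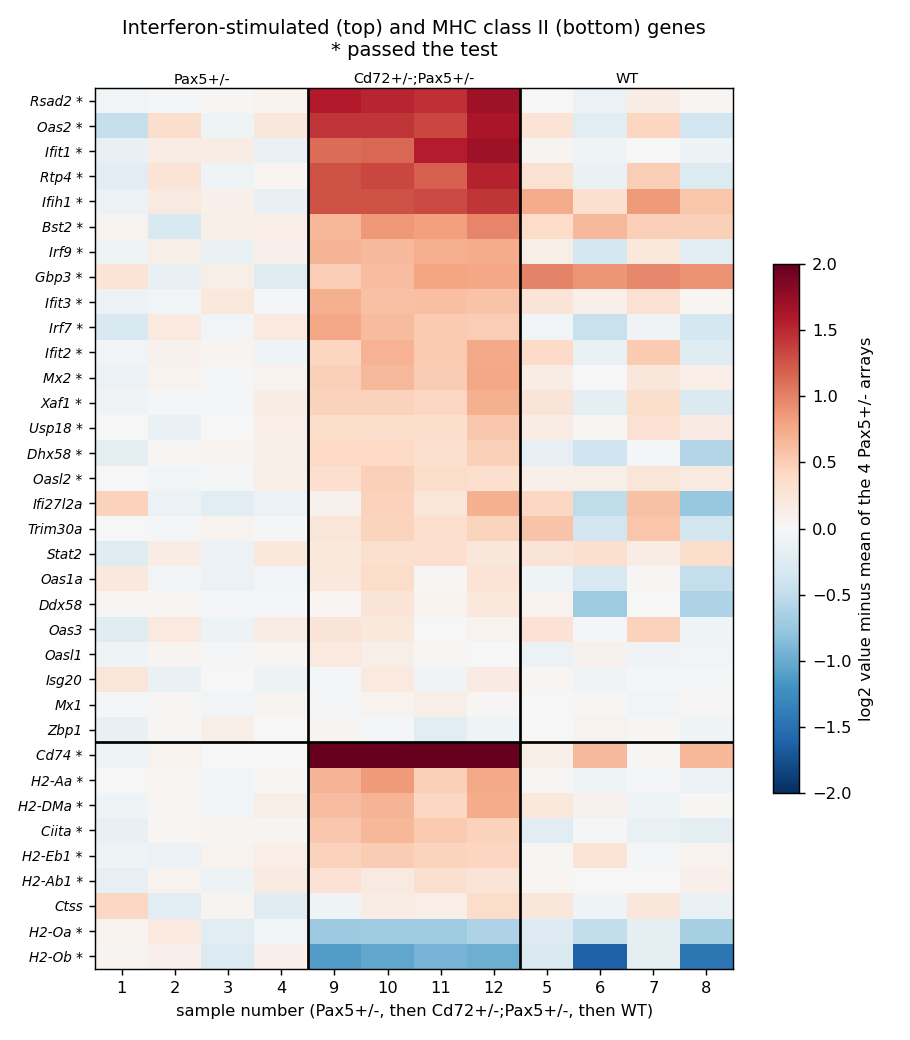
Log2 value minus the mean of the 4 Pax5+/- arrays (colour scale from -2 to 2, red higher) for 26 interferon-stimulated genes above the line and 9 MHC class II genes below it, by sample number along the x axis. Asterisks mark genes that passed. Rsad2, Oas2, Ifit1, Rtp4 and Ifih1 are red on all 4 Cd72+/-;Pax5+/- arrays, and H2-Oa and H2-Ob are blue there while Cd74 is red.

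Genes of the major histocompatibility complex (MHC) class II pathway, through which B cells present peptides to helper T cells, changed in 8 of 9 measured members, 6 higher and 2 lower, with a median of 0.46. Ciita, the coactivator that switches the pathway on, rose by 0.55 (SE 0.0638, limma adjusted p 9.19e-05), from 6.67, 6.86, 6.87 and 6.87 in samples 1 to 4 to 7.36, 7.48, 7.34 and 7.28 in samples 9 to 12. Cd74, the invariant chain that guides class II molecules to the peptide-loading compartment, measured 6.53, 6.69, 6.63 and 6.63 in samples 1 to 4 and 8.85, 8.78, 8.67 and 8.86 in samples 9 to 12. The Cd72+/-;Pax5+/- arrays stood above the WT arrays, at 6.65 to 7.28, and the Pax5+/- arrays overlapped these. The rise was 2.17 (SE 0.128, limma adjusted p 2.28e-07). The class II chains H2-Aa and H2-Eb1 rose by 0.69 (SE 0.0709, limma adjusted p 3.03e-05) and 0.46 (SE 0.073, limma adjusted p 0.0011), and H2-DMa, which catalyses peptide exchange, by 0.62 (SE 0.081, limma adjusted p 0.000249). H2-Aa was dim in both groups, with means of 5.13 in Pax5+/- and 5.82 in Cd72+/-;Pax5+/-, and so was the chain H2-Ab1, at 5.64 and 5.90. These means lay below every array median. H2-Eb1 averaged 7.20 and 7.67. H2-Oa and H2-Ob, whose product inhibits H2-DM, went the other way. H2-Oa measured 7.76, 7.88, 7.48 and 7.64 in samples 1 to 4 and 6.96, 6.98, 6.98 and 7.08 in samples 9 to 12, a fall of 0.69 (SE 0.105, limma adjusted p 0.000824). H2-Ob fell by 1.02 (SE 0.275, limma adjusted p 0.0342), and H2-Ab1 rose by 0.26 with overlapping groups (SE 0.0689, limma adjusted p 0.0312). Ctss, a protease gene that trims the invariant chain, differed by 0.14 and did not pass (limma adjusted p 0.665). With the closest arrays averaged Cd74, H2-Aa, Ciita and H2-DMa passed. H2-Ab1 passed no longer when sample 1, 3, 9, 11 or 12 was left out and H2-Ob without each array but sample 3 (largest adjusted p 0.0958 and 0.0876). In an MHC class I and antigen processing list of 11 measured genes the fall of Tap2, a peptide transporter gene, alone passed (-0.41, SE 0.0713, limma adjusted p 0.00227, and 0.189 with the closest arrays averaged).

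Class II promoters carry a conserved array of elements that ends in the Y box, an inverted CCAAT box. The windows below, again of 120 bases from RefSeq GRCm38.p6, show it in 2 members that rose and 1 that fell, with CTGATTGG, searched on both strands, in capitals.
H2-Aa, chr17:34287824-34287943, minus strand: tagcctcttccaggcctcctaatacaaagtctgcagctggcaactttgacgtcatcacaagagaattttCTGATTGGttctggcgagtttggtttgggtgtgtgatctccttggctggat
H2-Eb1, chr17:34305747-34305866, plus strand: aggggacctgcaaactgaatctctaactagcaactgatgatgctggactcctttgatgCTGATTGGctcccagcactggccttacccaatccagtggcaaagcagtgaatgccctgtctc
H2-Oa, chr17:34092259-34092378, plus strand: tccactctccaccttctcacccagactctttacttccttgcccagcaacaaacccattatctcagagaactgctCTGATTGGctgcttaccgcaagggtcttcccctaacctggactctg
The box began 51 bases before the start in H2-Aa, 62 in H2-Eb1 and 46 in H2-Oa. It stood in 2 of 3 rising members with a promoter in the table, in 1 of 2 falling members and in 1271 of 27025 genes (4.7%). Its presence thus did not follow the direction of change.

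Of 19 Toll-like receptor and inflammasome genes 3, Aim2 among them, fell, 1 rose and 15 did not pass, with a median of -0.03. Nlrp3, the sensor of cell stress, measured 7.27, 7.71, 7.40 and 7.46 in samples 1 to 4 and 5.66, 5.64, 5.85 and 5.54 in samples 9 to 12, below the WT arrays at 6.23 to 6.55. The fall was 1.79 (SE 0.0982, limma adjusted p 1.22e-07). Gsdmd, the pore-forming effector, fell by 0.40 (SE 0.0531, limma adjusted p 0.00029), and Pycard, the adaptor that joins sensor to caspase, rose by 0.43 (SE 0.0586, limma adjusted p 0.000339). Aim2 and Nlrp3 passed with the closest arrays averaged, and Gsdmd (0.0522) and Pycard (0.0706) did not. Of 16 NF-kB and inflammation genes 3 rose and none fell, with Ccl4, a chemokine gene, up by 0.70 (SE 0.0677, limma adjusted p 1.76e-05) and Cxcl10, a chemokine gene induced by interferon, by 0.46 (SE 0.0766, limma adjusted p 0.00166, and 0.0867 with the closest arrays averaged).

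Genes of B-cell receptor signalling changed in both directions. Of 29 measured genes below the receptor 6 rose and 7 fell, with a median of -0.05, and none of the 13 passed with the closest arrays averaged. Blk, a Src-family kinase gene of B cells, measured 10.92, 11.04, 10.91 and 11.12 in samples 1 to 4 and 9.55, 9.70, 9.57 and 9.69 in samples 9 to 12, a fall of 1.37 (SE 0.203, limma adjusted p 0.000673), with WT divided at 10.83, 9.93, 10.90 and 9.87. Vav3, a signalling protein below antigen receptors, fell by 1.00 (SE 0.101, limma adjusted p 2.59e-05), Itpr2, a calcium channel of the endoplasmic reticulum, by 0.84 (SE 0.142, limma adjusted p 0.00193) and Lat2, an adaptor, by 0.27 (SE 0.0616, limma adjusted p 0.0153). Lat2 passed no longer without sample 10 (adjusted p 0.0552). Prkcb, the protein kinase C that leads to NF-kB, rose by 0.79 (SE 0.101, limma adjusted p 0.000195), Pik3cd, the lymphocyte phosphoinositide 3-kinase, by 0.68 (SE 0.104, limma adjusted p 0.000817), Fyn by 0.39 (SE 0.0594, limma adjusted p 0.000872) and Ppp3ca, a calcineurin subunit gene, by 0.34 (SE 0.0487, limma adjusted p 0.000537). Other signalling genes, singled out after their values were seen, moved further. Lax1, an adaptor that restrains antigen receptors, fell by 1.86 (SE 0.125, limma adjusted p 7.98e-07), from a mean of 9.88 to 8.02. Plcg1 rose by 1.66 (SE 0.164, limma adjusted p 2.2e-05), from 7.95 to 8.22 on the Pax5+/- arrays to 9.74 to 9.81, and Bank1, a scaffold of B-cell receptor signals, by 1.74 (SE 0.192, limma adjusted p 5.9e-05). Lax1 and Plcg1 passed with the closest arrays averaged and Bank1 (0.0561) did not. Nr4a1, an immediate-early gene that antigen receptor signals induce, measured 9.52, 9.87, 9.51 and 9.83 in samples 1 to 4 and 7.76, 7.81, 7.74 and 7.59 in samples 9 to 12, with WT between at 8.54 to 8.68 and no overlap. Its fall was 1.96 (SE 0.0857, limma adjusted p 1.36e-08), and it passed with the closest arrays averaged. Of 16 immediate-early genes 2 rose and 2 fell; Atf3 rose by 1.00 (SE 0.0551, limma adjusted p 1.22e-07), Ier3 by 0.69 (SE 0.0859, limma adjusted p 0.000159, and 0.0578 with the closest arrays averaged), and Fosb fell by 0.73 (SE 0.176, limma adjusted p 0.0187), lost without sample 3 or 11 (largest adjusted p 0.0614) and with the closest arrays averaged (0.381).

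Of 9 measured receptor chains 1 passed, Cd79a, up by 0.30 (SE 0.0628, limma adjusted p 0.00867, and 0.236 with the closest arrays averaged). Igll1 and Vpreb1, which make the surrogate light chain, differed by 0.09 and 0.08 with overlapping groups (limma adjusted p 0.813 and 0.82). The 13 measured pro-B defining markers averaged 11.65 to 11.80 on the Pax5+/- arrays and 11.36 to 11.55 on the Cd72+/-;Pax5+/- arrays, with 1 higher (Cd79a) and 2 lower (Cd24a and Dntt). The median difference over the list was -0.10, with 5 of 13 above 0, while Dntt fell by 2.12 and Cd24a by 0.93. Dntt, the terminal transferase that adds bases at V(D)J joints, measured 10.82, 10.57, 10.61 and 10.54 in samples 1 to 4 and 8.29, 8.52, 8.40 and 8.85 in samples 9 to 12. The groups did not overlap, and the WT arrays lay at 11.93, 9.76, 11.92 and 9.82. The fall of 2.12 (SE 0.443, limma adjusted p 0.00809) was the one change that passed among 14 genes of V(D)J recombination, and it did not pass with the closest arrays averaged (0.308). Rag1, a subunit of the recombinase, differed by 0.29 without overlap and did not pass (limma adjusted p 0.552), and did so when the fit held the 8 arrays of both groups alone (adjusted p 0.00759). Rag2 differed by -0.16 with overlap (limma adjusted p 0.828). Of 16 pro-B and pre-B stage markers 4 fell and 1 rose. Cd93, a marker of early B cells, fell by 0.85 (SE 0.163, limma adjusted p 0.00451), Cd24a by 0.93 (SE 0.177, limma adjusted p 0.00433) and Il2ra, the CD25 marker of pre-B cells, by 0.62 (SE 0.0712, limma adjusted p 7.59e-05). Bst1, the CD157 marker of early B cells, rose by 2.09 (SE 0.195, limma adjusted p 1.39e-05), from 7.08 to 7.43 on the Pax5+/- arrays to 9.22 to 9.49, with WT at 8.78 to 9.73, and alone of the 5 passed with the closest arrays averaged.

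B-lineage transcription factors also moved both ways. Of 26 measured, 4 rose and 6 fell, and Ikzf3 alone passed with the closest arrays averaged; without sample 3, 10 or 11 the 10 fell to 6. Ikzf3, which encodes Aiolos and restrains pre-B cell growth, measured 7.95, 8.43, 8.16 and 8.32 in samples 1 to 4 and 6.68, 6.70, 6.64 and 6.79 in samples 9 to 12, below the WT arrays at 7.77 to 7.89. The fall was 1.51 (SE 0.0853, limma adjusted p 1.46e-07). Bcl11a, needed for B-cell development, rose by 0.98 (SE 0.102, limma adjusted p 3.5e-05), Spib by 0.89 (SE 0.156, limma adjusted p 0.00247) and Tcf3, which encodes the E2A proteins, by 0.55 (SE 0.0643, limma adjusted p 9.12e-05). Ets1 fell by 0.52 (SE 0.0987, limma adjusted p 0.00437) and Irf8 by 0.41 (SE 0.0801, limma adjusted p 0.00516). Ebf1, the factor that acts with Pax5, differed by -0.06 with overlapping groups (limma adjusted p 0.636).

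Genes that Pax5 is known to switch on moved both ways, and those it switches off were lower where they changed. Of 18 activated genes 4 rose and 5 fell, with a median of -0.07. The 5 falls include Cd72, of which the genotype removed a copy. In its fall the loss of that copy and a change as a Pax5 target cannot be told apart. Atp1b1, a sodium pump subunit gene, measured 8.33, 8.27, 8.25 and 8.38 in samples 1 to 4 and 10.19, 10.26, 10.38 and 10.24 in samples 9 to 12, nearer to WT at 10.84 to 11.69. The rise was 1.96 (SE 0.166, limma adjusted p 6.2e-06). Bst1, Spib and Cd79a were the other rises. Cd72, Ikzf3 and Irf8 fell as above, Capn2, a calpain gene, fell by 0.85 (SE 0.0676, limma adjusted p 3.57e-06), and Cd55, a complement regulator gene, by 1.16 (SE 0.281, limma adjusted p 0.0196), lost without sample 4 or 10 (largest adjusted p 0.0629) and with the closest arrays averaged (0.396). Of 14 repressed genes 5 fell and none rose, with a median of -0.07. Besides Ccr2 these were Sdc1, the plasma cell surface proteoglycan (-0.77, SE 0.0782, limma adjusted p 2.72e-05), Itgal, an integrin chain (-0.26, SE 0.0451, limma adjusted p 0.00223), Cd33, a myeloid lectin (-0.91, SE 0.166, limma adjusted p 0.00328), and Nkg7, a granule protein of killer cells (-0.69, SE 0.132, limma adjusted p 0.00433). With the closest arrays averaged 5 of the 9 activated genes, Cd72 among them, and 2 of the 5 repressed genes, Ccr2 and Sdc1, passed.

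Of 19 genes that carry interleukin-7 and JAK-STAT signals 2 rose and none fell. Cish, a feedback inhibitor that Stat5 induces, rose by 1.28 (SE 0.266, limma adjusted p 0.00774), from 7.53, 7.49, 7.33 and 7.32 in samples 1 to 4 to 8.64, 8.64, 8.72 and 8.81 in samples 9 to 12, with WT divided at 7.68, 8.98, 7.60 and 8.87. Ccnd3, the D-type cyclin of dividing pre-B cells, rose by 0.33 (SE 0.0541, limma adjusted p 0.00146). Il7r measured 12.54, 12.52, 12.58 and 12.48 in samples 1 to 4 and 12.20, 12.21, 12.24 and 12.24 in samples 9 to 12. The groups did not overlap, yet the difference of -0.31 did not pass (limma adjusted p 0.591), and the WT arrays lay at 12.47, 11.12, 12.44 and 11.07; with the 8 arrays of both groups alone in the fit its adjusted p was 0.0009. Myc likewise differed by 0.30 without overlap (limma adjusted p 0.701, and 0.00527 with the 8 arrays alone). With those 8 arrays 8 of the 19 genes passed, and with the closest arrays averaged none did.

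Cell-cycle genes rose where they changed. Of 20 S-phase genes 4 rose and none fell, with a median of 0.20, and of 18 genes of G2 and mitosis 3 rose and none fell, with a median of 0.02; without sample 3, 4, 10, 11 or 12 the latter count was 1. Rrm2, a subunit of ribonucleotide reductase, rose by 0.81 (SE 0.0837, limma adjusted p 3.18e-05), from 9.62 to 10.05 on the Pax5+/- arrays to 10.58 to 10.69, and passed with the closest arrays averaged (0.0493). E2f1 rose by 0.37 (SE 0.0616, limma adjusted p 0.00165), Uhrf1 by 0.32 (SE 0.053, limma adjusted p 0.00178) and Bub1b, a spindle checkpoint gene, by 0.31 (SE 0.0602, limma adjusted p 0.00495), and none of these 3 passed with the pairs averaged. In the Bcl2 family, which sets the threshold for cell death, 4 of 13 rose and none fell: Bcl2l11, the death gene Bim, by 0.90 (SE 0.192, limma adjusted p 0.00922), Bcl2l1, the survival gene Bcl-xL, by 0.66 (SE 0.0989, limma adjusted p 0.000757), Pmaip1, the death gene Noxa, by 0.47 (SE 0.0694, limma adjusted p 0.000681), and Bbc3, the death gene Puma, by 0.28 (SE 0.0718, limma adjusted p 0.029). Pmaip1 alone passed with the closest arrays averaged, and Bbc3 passed no longer without sample 1, 2, 9, 10 or 11 (largest adjusted p 0.0904).

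Genes that the transcription factor Atf4 induces when amino acids run short were higher. This list was written after values of these arrays were seen, so its count is a description. Of 20 genes 13 rose and none fell, with a median of 0.61; without sample 2, 4 or 9 the count was 8, and with the closest arrays averaged it was 1, Atf3. Slc6a9, a glycine transporter gene, measured 7.36, 7.47, 7.24 and 7.36 in samples 1 to 4 and 8.88, 8.86, 8.85 and 8.70 in samples 9 to 12, a rise of 1.47 (SE 0.165, limma adjusted p 6.99e-05). Trib3 rose by 1.07 (SE 0.127, limma adjusted p 0.000103), Atf5 by 1.03 (SE 0.126, limma adjusted p 0.000128), Cth, an enzyme of cysteine synthesis, by 0.90 (SE 0.112, limma adjusted p 0.000154), Slc1a4, a neutral amino acid transporter gene, by 1.01 (SE 0.214, limma adjusted p 0.00858) and Ddit3, which encodes CHOP, by 0.51 (SE 0.0649, limma adjusted p 0.0002). Atf4 itself rose by 0.70 (SE 0.172, limma adjusted p 0.0201), lost without sample 2, 4, 9 or 11 (largest adjusted p 0.0607), and Slc3a2, the shared heavy chain of several amino acid transporters, by 0.81 (SE 0.196, limma adjusted p 0.0196), lost without sample 2, 4, 9 or 12 (largest adjusted p 0.0574). Its partner Slc7a5 measured 10.45, 10.38, 10.38 and 10.25 in samples 1 to 4 and 11.59, 11.37, 11.48 and 11.33 in samples 9 to 12, while the WT arrays lay at 10.24, 11.69, 10.20 and 11.74. Its rise of 1.08 (SE 0.308, limma adjusted p 0.0452) was lost without any 1 of the 8 arrays (adjusted p 0.067 to 0.112). Shmt2 differed by 0.95 without overlap at a limma adjusted p of 0.0513, and at 1.81e-06 with the 8 arrays of both groups alone.

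**Figure D5:**
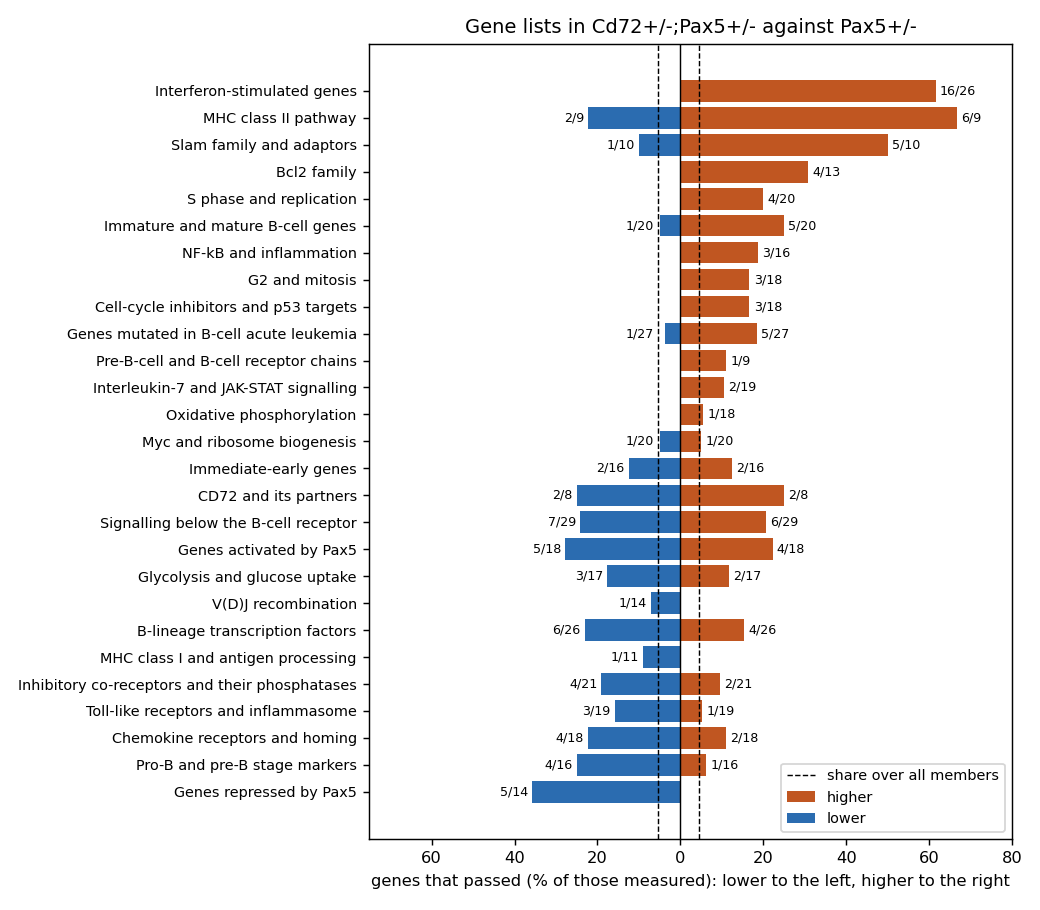
Share of the measured genes of 27 lists that passed and were higher (orange, to the right) or lower (blue, to the left) in Cd72+/-;Pax5+/-, in percent, with counts beside the bars; dashed lines mark 4.52% higher and 5.38% lower, the shares over all autosomal clusters. Interferon-stimulated genes (16 of 26) and the MHC class II pathway (6 of 9) lie furthest to the right, and genes repressed by Pax5 (5 of 14) furthest to the left.

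The remaining lists held from 1 to 6 members that passed. Of 18 oxidative phosphorylation genes 1 rose, and of 20 genes of Myc and ribosome biogenesis 1 rose and 1 fell. The oxidative phosphorylation count was 5 without sample 1 and 0 when any other single array was left out, and the Myc and ribosome total was 2 without sample 1 and 1 when any other was left out. Of 17 genes of glycolysis and glucose uptake 2 rose and 3 fell, a total of 5 that dropped to 2 without sample 4, 9 or 12 and to 3 without sample 2, 10 or 11. Pfkp, a phosphofructokinase gene, rose by 0.98 (SE 0.0958, limma adjusted p 1.98e-05, and 0.0482 with the closest arrays averaged). Of 18 chemokine receptor and homing genes 2 rose, Cd44 and Ccr7, and 4 fell. Ccr7, which guides lymphocytes to lymph nodes, rose by 0.64 (SE 0.0989, limma adjusted p 0.000935). Of 20 immature and mature B-cell genes 5 rose, Ccr7 among them, and 1 fell; S1pr4, a sphingosine phosphate receptor gene of that list, rose by 0.51 (SE 0.0747, limma adjusted p 0.000608). Neither Ccr7 nor S1pr4 passed with the closest arrays averaged. Of 18 cell-cycle inhibitors and p53 targets 3 rose, among them Zmat3 by 0.32 (SE 0.0733, limma adjusted p 0.0141, and 0.338 with the pairs averaged). Of 27 genes mutated in B-cell acute leukemia 5 rose and 1, Ikzf3, fell, and 3 in all passed without sample 3 or 9; Tcf3 and Btla are given above, and Abl1 rose by 0.34 (SE 0.0789, limma adjusted p 0.0152), lost without sample 3 or 9 (largest adjusted p 0.053) and with the closest arrays averaged (0.355).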

How the data were processed

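Pro-B cell RNA was hybridised to 12 arrays, 4 per group, and groups were read from the sample titles. The authors deposited log2 values for each transcript cluster. Arrays were analysed by the authors with the Transcriptome Analysis Console, per the submitters' processing notes; no source used here gives the background correction, the normalization or the build. Symbols came from the platform annotation, and chromosomes, gene order and promoters from RefSeq (GRCm38.p6). A gene with several clusters is represented by the one with the highest mean.

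A mean per group was fitted to all 12 arrays with limma 3.58.1 in R 4.3.3 (9 residual and 3.28 prior degrees of freedom) with no filter on dim clusters, and Cd72+/-;Pax5+/- minus Pax5+/- was tested two-sided. SDs are over 4 arrays, and SEs are moderated. The procedure was tested on simulated data with independent noise on each array. That simulation held no closest pairs, so it could not test their effect on the calls. Figures used Python 3.11.15 and matplotlib 3.10.9. The number of arrays limits the precision.

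The comparison, members and gene lists were chosen with earlier results of these data known. Named by rule were Cd72 and Pax5, the 15 largest rises and 15 largest falls without overlap, up to 4 members per list with the smallest adjusted p (the rule also allowed up to 2 per list that did not pass; most of these are given as counts only, and those named were chosen after their values were seen), neighbours of Cd72 and Pax5 that passed, and adjacent genes over 2-fold; other names, and the lists of TGF-beta, interleukin-1, amino acid stress, beta protocadherin and Ifi200 genes, were chosen after their values were seen. Alternatives covered quantile normalization, median shift, a filter at 6, all clusters, autosomes alone, a trended robust prior, only the 8 arrays, array weights, each array left out, closest arrays averaged or as a random block, and averaging all clusters of a gene.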

Additional observations from a re-analysis of the deposited data

Results flagged for a closer look

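In 15 of 366 groups of 4 arrays tested (183 named genes in 2 groups), 1 array stood apart from the other 3 by a gap that took up more of the group's range than Dixon's critical value allows; chance marks about 1 in 20 such groups. In Cd72+/-;Pax5+/- these were sample 11 for Bcl11a, at 10.89 beside a median of 10.76 of the others, and for Insr, an insulin receptor gene, at 8.53 beside 8.42. Sample 12 stood apart for Ifi206 at 6.80 beside 6.22, for Slc6a9 at 8.70 beside 8.86, for Usp18 at 6.37 beside 6.18, and for H2-Oa at 7.08 beside 6.98. Sample 9 did for Trib3 at 9.26 beside 9.01, for Alpl, an alkaline phosphatase gene of stroma, at 9.06 beside 8.77, and for Ifit3 at 6.67 beside 6.54. In Pax5+/- sample 1 stood apart for Ciita at 6.67 beside 6.87 and for Nfkbiz at 7.57 beside 7.75, sample 2 for Bst2 at 7.66 beside 8.08, sample 3 for Ccnd3 at 9.88 beside 9.97 and for H2-Ob at 9.60 beside 9.98, and sample 4 for Aldoc, a glycolytic gene, at 6.89 beside 6.68.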

How the results depend on the processing

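Over 19 alternatives none of the 168 named genes that passed changed direction, and 66 passed in each alternative that gave the gene a value, since some dim genes had none under the filter at 6. Averaging the closest arrays (2 against 2) gave 403 clusters that passed, 163 higher and 240 lower, with 164 over 2-fold, and ended the call of 102 named genes. The same pairs as a random block (correlation 0.427) gave 1334, 574 higher and 760 lower, and ended 22. With only the 8 arrays of both groups 3243 passed, 1632 higher and 1611 lower, and with array weights 2983. With arrays shifted to a common median 1131 were higher and 1048 lower. Leaving out 1 array gave 1595 to 2233 that passed, 724 to 1048 higher, 871 to 1185 lower, 239 to 252 over 2-fold and 258 to 272 at the study's threshold, with Cd72 at -2.73 to -2.62 and Pax5 at 0.13 to 0.32, and ended 28 calls of named genes. Of the 15 named genes that did not pass, Igll1 changed sign, with -0.01 to 0.22 when 1 array was left out. With the 8 arrays alone Rag1, Il7r, Myc and Shmt2 passed. The cause of these moves was not tested. Where arrays were averaged or left out, the fit also held fewer samples. No paired analysis was possible because each sample number occurs once in the titles, so groups share none.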
